A study of Mus musculus with 10 samples.

Results

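The 10 genes described here encode proteins that carry, fold and space histones in chromatin: Chaf1a and Chaf1b, Asf1a, Asf1b, Nasp and Dnajc9 are histone chaperones or their subunits, H2afz, H2afx and H3f3a encode variant histones, and Hmgb2 encodes a high-mobility-group protein that bends DNA. They were listed by symbol, with earlier results of these data known, and make up 10 of the 45232 gene entries. Their RNA was measured in NIH3T3 cells, an immortalized mouse fibroblast line, after 60 h in medium with 0% serum, which is used to arrest these cells outside the division cycle. Before that they grew in 10% serum. All cells carried CRISPR-made InDels in Lin37, a subunit of the MuvB core of the DREAM complex, which represses cell cycle genes in resting cells. Each of the 2 lines is a single clone. Clone 411-27 has its InDels at exon 4 and clone 632-2 at exon 6. Each clone held an episome, a plasmid kept outside the chromosomes, with a doxycycline-inducible promoter that drove luciferase in the KO cells or wild-type Lin37 in the rescue cells, and cells with the episome had been selected with hygromycin and sorted for GFP. The rescue cells are thus mutant cells with Lin37 given back from a plasmid, and no unmutated parental cells were compared. Clone 411-27 had 2 replicates of KO and 2 of rescue. Clone 632-2 had 3 libraries of each, of which sample 3 is a technical replicate of sample 2. The technical pair was averaged, which left 4 KO and 4 rescue replicates.

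New nucleosomes are assembled behind the replication fork by a relay of chaperones. NASP and DNAJC9 hold new H3 and H4 in the cell, ASF1 receives the H3-H4 dimer, and the CAF-1 complex, whose large and middle subunits are CHAF1A and CHAF1B, places the histones on DNA next to the PCNA clamp. Vertebrates have a pair of ASF1 genes: ASF1A is found in resting and dividing cells, whereas ASF1B is known as the form of dividing cells. The variants H2A.Z (H2afz) and H3.3 (H3f3a) can be built into chromatin outside of S phase, and H2A.X (H2afx) is the variant that is phosphorylated around DNA breaks.

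Lin37 itself was checked first. After rescaling of each library by its median ratio to the others, Lin37 was at 0.285 and 0.284 RPKM (read counts adjusted for gene length and library size) in the KO replicates of clone 411-27 and at 2.54 and 2.12 RPKM in its rescue replicates. In clone 632-2 it was at 0.417, 0.279 and 0.268 RPKM in the KO libraries and at 4.92, 5.11 and 4.41 RPKM in the rescue libraries. The labels and the target gene thus match in all 10 libraries. The factors that the rescaling divides by ran from 0.324 to 2.70 and were higher in the KO than in the same-numbered rescue library each time, and without rescaling the median log2 change of all genes was 0.64 in place of -0.03. The number of reads per library is unknown, since low values did not fall on whole multiples of 1 read (18.0% to 30.5% of low values per library were within 0.05 of a whole multiple), so counting errors of single values could not be given. The fibroblast markers were present, with a summed level of 470.4 to 764.9 RPKM in KO and 506 to 829 RPKM in rescue over 8 genes, and 0 of the 8 were called. Of 6 leukocyte, epithelial and endothelial markers, Cd68 made up most of the sum (0.871 to 1.49 RPKM in KO, 0.836 to 1.04 RPKM in rescue), and Ptprc, Epcam, Krt8, Pecam1 and Cdh5 were each at a mean of 0.0717 RPKM or less in either group.

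The sequences just before the transcription starts are shown first, because cell cycle genes bound by DREAM are known to carry E2F sites or CHR elements there. RefSeq promoters of GRCm38.p6 were found for 9 of the 10 genes, all but H2afx. Each window of 300 bases (250 before to 50 after the start) was searched on both strands for E2F letters, which were TTGGCGC and its variants TTCGCGC together with TTCCCGC plus the form TTGCCGC, for CHR letters, which were TTTGAA and the variant TTCGAA, and for the CCAAT box. E2F letters occur in 9.57% of 32851 mouse promoters, CHR letters in 19.2% and CCAAT in 37.4%. The 120 bases before the start are printed for 6 genes, 5 of which had E2F or CHR letters in this stretch or elsewhere in the window, with E2F or CHR letters in capitals; Asf1a is shown as the counterpart of Asf1b.
Chaf1a, chr17:56040296-56040415, plus strand: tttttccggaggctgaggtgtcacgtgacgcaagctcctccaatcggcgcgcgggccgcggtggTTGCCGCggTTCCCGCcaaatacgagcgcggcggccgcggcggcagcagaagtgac
Asf1b, chr8:83955574-83955693, plus strand: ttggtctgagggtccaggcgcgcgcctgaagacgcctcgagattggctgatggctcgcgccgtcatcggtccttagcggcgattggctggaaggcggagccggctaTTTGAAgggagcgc
Asf1a, chr10:53596841-53596960, plus strand: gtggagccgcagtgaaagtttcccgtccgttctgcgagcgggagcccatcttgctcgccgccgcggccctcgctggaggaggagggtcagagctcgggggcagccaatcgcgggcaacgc
Dnajc9, chr14:20388911-20389030, minus strand: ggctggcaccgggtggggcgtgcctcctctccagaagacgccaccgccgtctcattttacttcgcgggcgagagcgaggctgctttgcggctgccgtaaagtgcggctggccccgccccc
H2afz, chr3:137864367-137864486, plus strand: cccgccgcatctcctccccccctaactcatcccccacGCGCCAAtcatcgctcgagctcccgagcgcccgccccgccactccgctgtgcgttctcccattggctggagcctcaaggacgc
Hmgb2, chr8:57511723-57511842, plus strand: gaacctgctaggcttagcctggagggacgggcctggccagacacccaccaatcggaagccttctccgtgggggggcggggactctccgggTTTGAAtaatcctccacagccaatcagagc

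Chaf1a held E2F letters at 56 and 47 bases before the start, Asf1b held TTTGAA at 14 bases before it together with 4 reversed CCAAT boxes, and Hmgb2 held TTTGAA at 30 bases before it and, reversed, at 218. H2afz held reversed E2F letters at 83 bases before the start, which overlap a CCAAT box. Dnajc9 had E2F letters only past the start, at 40 bases. Chaf1b had reversed E2F letters at 227 bases before and 27 after the start, and Nasp had TTTGAA at 130 before it. In Asf1a and H3f3a only CCAAT was found. All distances are from the RefSeq starts. In GENCODE, the annotation used for the gene positions below, the spans of Asf1b and Asf1a begin at 83955507 and 53596757. Their printed stretches lie inside these spans. The letters found are matches only, and factor binding was not measured in these data.

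Over both clones, 4 of the 10 genes rose in KO against rescue at an adjusted p under 0.05 (limma with clone as a covariate, adjusted over 16866 genes), and 0 fell. They were Chaf1a, Asf1b, Dnajc9 and H2afz, while Chaf1b, Asf1a, Nasp, H2afx, H3f3a and Hmgb2 did not pass. Among all genes tested, 1.61% were called higher and 0.083% lower. All 10 genes passed the minimum mean of 0.1 RPKM, and the median of their log2 changes was 0.67, against -0.03 over all genes tested. In 6 of the 10 (the 4 called genes, Chaf1b and Hmgb2), every KO replicate was above every rescue replicate, which was so for 3.11% of all genes (the reverse held for 1.4%). At an unadjusted p under 0.05, 7 of the 10 lay higher and 0 lower, against 5.06% and 3.72% of all genes. Since the 10 genes were chosen with earlier results of these data known, their shares are a description of a selected set.

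**Figure D1:**
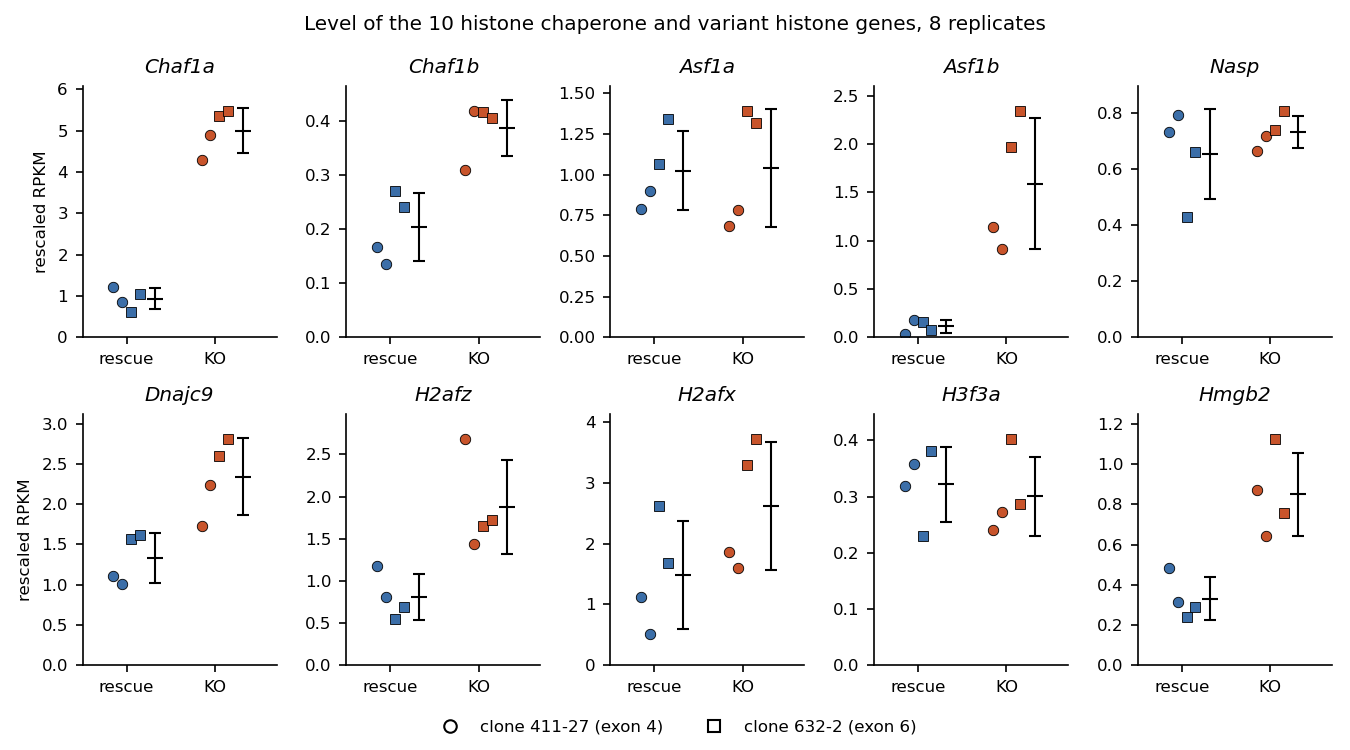
Rescaled RPKM of the 10 genes (y axes start at 0 and differ between panels) in the 4 rescue and 4 KO replicates; circles are clone 411-27, squares clone 632-2, and the bars give the mean and SD of the 4 replicates. In Chaf1a the KO replicates lie at 4.28 RPKM or above and the rescue replicates at 1.20 RPKM or below, whereas the groups overlap in Asf1a, Nasp, H2afx and H3f3a.

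CAF-1 is the chaperone that deposits histones at the fork, and the gene of its large subunit rose in KO while that of its middle subunit did not pass the test. Chaf1a (ENSMUSG00000002835, chromosome 17, 56040439 to 56072289, plus strand) was at 4.28 and 4.90 RPKM in the KO replicates of clone 411-27 against 1.20 and 0.842 RPKM in the rescue replicates. In clone 632-2, the KO libraries had 5.35, 4.74 and 6.21 RPKM and the rescue libraries 0.618, 1.08 and 1.03 RPKM. Every KO library was thus well above every rescue library, and the clones resembled each other. The KO replicates averaged 5.0 ± 0.54 RPKM and the rescue replicates 0.930 ± 0.255 RPKM (SD, n = 4 each), a 5.38-fold difference, and the log2 change on log2(RPKM + 0.5) was 1.96 ± 0.15 (SE, adjusted p = 0.000293 with limma). Chaf1b, the middle subunit (ENSMUSG00000022945, chromosome 16, 93883901 to 93906115, plus strand), was far lower, at 0.309 to 0.418 RPKM in KO and 0.135 to 0.270 RPKM in rescue. Its groups did not overlap and its means were 1.91-fold apart, but its log2 change of 0.34 ± 0.10 (SE) did not pass (adjusted p = 0.224). All Chaf1b values are under the added 0.5 RPKM, which makes this log2 change smaller than the fold of the means. The ratio of Chaf1a to Chaf1b was 11.7 to 13.8 in the KO replicates and 2.29 to 7.19 in the rescue replicates. Rbbp4, the small subunit, which is shared with other complexes, was at 1.39 ± 0.095 RPKM in KO and 1.52 ± 0.20 RPKM in rescue (SD, n = 4), with a log2 change of -0.09 ± 0.10 (SE, adjusted p = 0.853).

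The 3′ end of Chaf1a lies across Ubxn6, a gene on the other strand, over 5245 bases, and 46.8% of the 31-base stretches of the Chaf1a transcripts also occur in Ubxn6. Strand-specific counting is not stated for these data, so reads from there cannot be assigned to either gene. Ubxn6 was at 1.65 ± 0.11 RPKM in KO and 1.93 ± 0.34 RPKM in rescue (SD, n = 4), with a log2 change of -0.17 ± 0.10 (SE, adjusted p = 0.705). How reads of the shared stretch were divided between the 2 genes was not tested.

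The pair of ASF1 genes, whose proteins hand the H3-H4 dimer to CAF-1, parted. Asf1b (ENSMUSG00000005470, chromosome 8, 83955507 to 83970197, plus strand) was at 1.14 and 0.912 RPKM in the KO replicates of clone 411-27 and at 0.0357 and 0.180 RPKM in its rescue replicates. In clone 632-2 it had 1.97, 2.20 and 2.48 RPKM in KO and 0.155, 0.0761 and 0.0752 RPKM in rescue. All KO libraries were at 0.912 RPKM or above and all rescue libraries at 0.180 RPKM or below. The means were 1.59 ± 0.68 RPKM in KO and 0.112 ± 0.067 RPKM in rescue (SD, n = 4), 14.2-fold apart, and the log2 change was 1.72 ± 0.18 (SE, adjusted p = 0.00128 with limma), which is less than the fold of the means because the rescue values are under the added 0.5 RPKM. Asf1a (ENSMUSG00000019857, chromosome 10, 53596757 to 53609225, plus strand) had 0.682 and 0.781 RPKM in KO and 0.786 and 0.901 RPKM in rescue in clone 411-27, and replicate values of 1.39 and 1.32 RPKM in KO and 1.07 and 1.34 RPKM in rescue in clone 632-2. Its groups overlapped throughout. The log2 change was 0.00 ± 0.10 (SE, 95% interval -0.23 to 0.23, adjusted p = 1.00), and its sign depended on the settings. In the rescue cells Asf1a was listed at the higher level of the pair, with an Asf1b to Asf1a ratio of 0.0454 to 0.200. In the KO cells the listed order was reversed, with a ratio of 1.17 to 1.78 in all 4 replicates. Asf1a lies wholly inside Mcm9 on the opposite strand and shares 55.7% of its 31-base stretches with it. Mcm9 was at 0.230 ± 0.062 RPKM in KO and 0.301 ± 0.084 RPKM in rescue (SD, n = 4), and the division of reads between Asf1a and Mcm9 was not tested. Asf1b shares 0 of its stretches with other genes. The Asf1b to Asf1a ratio, and which of the pair is higher in KO, thus depend on how the Asf1a reads were divided.

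**Figure D2:**
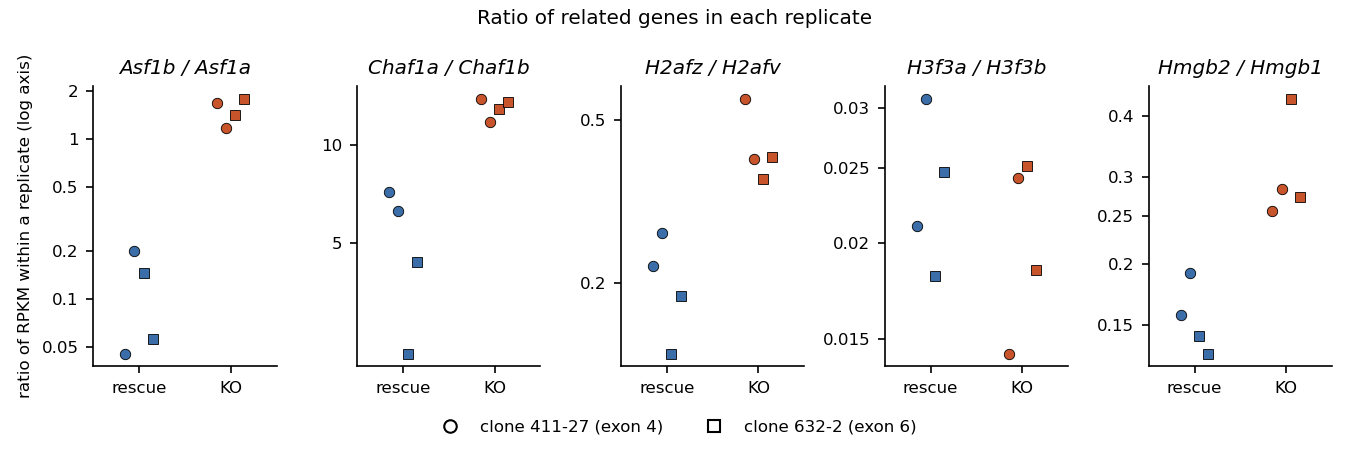
Ratio of rescaled RPKM of related genes within each replicate (log axes that differ between panels), rescue in blue and KO in red, circles for clone 411-27 and squares for clone 632-2. The Asf1b to Asf1a ratio is 0.200 or less in rescue and 1.17 or more in KO, and the H3f3a to H3f3b ratio overlaps between the groups.

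Of the chaperones upstream of ASF1, which carry newly made H3 and H4, Dnajc9 rose and Nasp did not pass. Dnajc9 (ENSMUSG00000021811, chromosome 14, 20384638 to 20388910, minus strand), a J-domain co-chaperone that binds H3-H4 and recruits HSP70, was at 1.72 and 2.24 RPKM in KO and 1.10 and 1.01 RPKM in rescue in clone 411-27. In clone 632-2 it was at 2.60, 2.45 and 3.17 RPKM in KO and 1.56, 1.37 and 1.87 RPKM in rescue. The KO libraries were above the rescue libraries of the same clone, and over the 8 replicates the groups did not overlap. The log2 change was 0.64 ± 0.10 (SE, adjusted p = 0.00987 with limma), a 1.77-fold difference of the means; without KO replicate 2 of clone 632-2 the adjusted p was 0.0651. Nasp (ENSMUSG00000028693, chromosome 4, 116601052 to 116627941, minus strand) lay between 0.665 and 0.807 RPKM in KO and between 0.428 and 0.794 RPKM in rescue, with a log2 change of 0.11 ± 0.12 (SE, 95% interval -0.16 to 0.37, adjusted p = 0.854).

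H2A.Z, the variant of H2A found around transcription starts, rose, but most of its sequence is not unique. H2afz (ENSMUSG00000037894, chromosome 3, 137864487 to 137866922, plus strand) was at 2.69 and 1.44 RPKM in KO and 1.18 and 0.810 RPKM in rescue in clone 411-27. In clone 632-2 it was at 1.66, 1.77 and 1.67 RPKM in KO and 0.542, 0.560 and 0.805 RPKM in rescue. KO replicate 1 of clone 411-27 was the highest, and the groups did not overlap. The log2 change was 0.86 ± 0.17 (SE, adjusted p = 0.0410 with limma), and the means were 2.33-fold apart. This call is close to the threshold: it was lost with 6 of the 8 replicates left out in turn (adjusted p 0.0920 to 0.172, clone 411-27 KO 1 and rescue 2 and every replicate of clone 632-2), without a minimum level (0.325) and without the clone covariate (0.0911), while with the replicate numbers as a block it was 0.00963. H2afv, which encodes the sister protein H2A.Z.2, was at 4.30 ± 0.53 RPKM in KO and 4.04 ± 0.97 RPKM in rescue (SD, n = 4; adjusted p = 0.911), so that the H2afz to H2afv ratio was 0.358 to 0.565 in KO and 0.134 to 0.265 in rescue.

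Of the 31-base stretches of the H2afz transcripts, 73.9% occur in another gene as well. Tmcc1 transcripts hold 58.4% of them and Gm26623, a lincRNA, 32.8%. Tmcc1 was listed at 0.431 RPKM in KO and 0.632 RPKM in rescue (log2 change -0.29, adjusted p = 0.381), and Gm26623 at 0.201 and 0.0447 RPKM (0.35, not called). The processed pseudogene Gm8203 (ENSMUSG00000101878, chromosome 6, 116173737 to 116174123, plus strand), inside Tmcc1, is annotated over 387 bases that equal the whole coding sequence of H2afz with 0 differences. Its first 120 bases are printed because reads from them fit either locus.
Gm8203, chr6:116173737-116173856, plus strand: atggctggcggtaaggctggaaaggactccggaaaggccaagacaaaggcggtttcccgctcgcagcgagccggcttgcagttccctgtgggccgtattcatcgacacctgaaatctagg

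Gm8203 was listed far above H2afz itself. It had 30.3 and 27.8 RPKM in KO and 9.79 and 7.50 RPKM in rescue in clone 411-27, and 31.4, 30.2 and 36.5 RPKM in KO and 8.85, 6.65 and 10.2 RPKM in rescue in clone 632-2. Its KO libraries were all at least 27.8 RPKM and its rescue libraries at most 10.2 RPKM, a tighter separation than that of H2afz. The means were 30.7 ± 2.3 and 8.64 ± 0.95 RPKM (SD, n = 4), with a log2 change of 1.77 ± 0.11 (SE, adjusted p = 0.000155 with limma). The deposited values do not tell which of the loci these reads came from, and what share of H2afz reads was counted at Gm8203 was not tested.

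**Figure D3:**
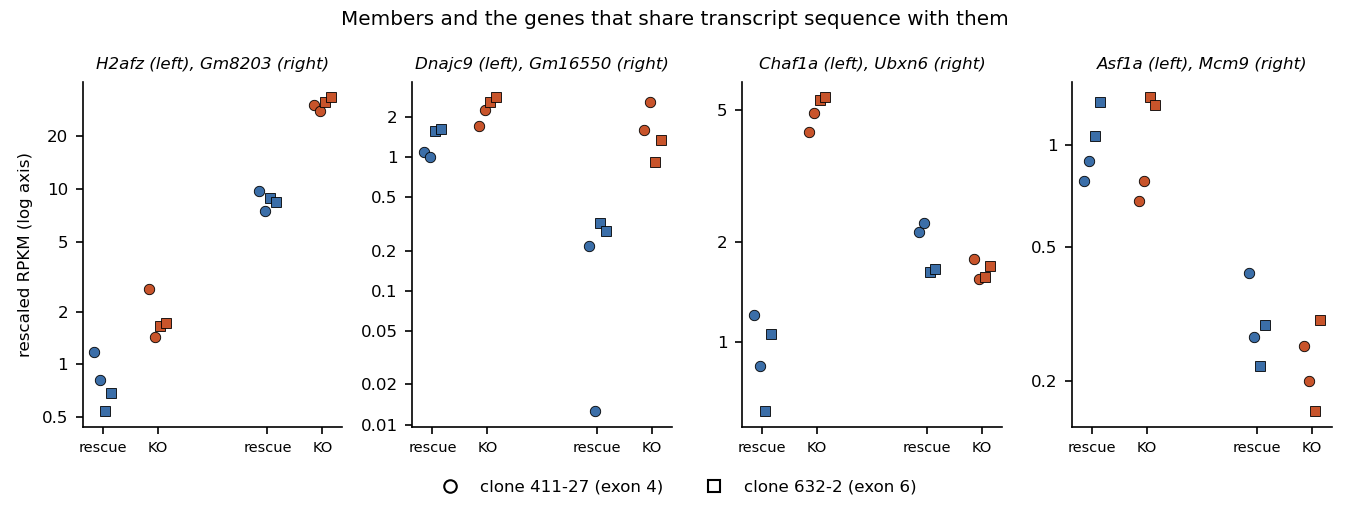
Rescaled RPKM (log axes) of 4 of the genes, left in each panel, and of a gene that shares transcript sequence with each, right, in rescue (blue) and KO (red) replicates, circles for clone 411-27 and squares for clone 632-2. Gm8203 and Gm16550 lie higher in KO in all 4 pairs, as H2afz and Dnajc9 do, while Ubxn6 and Mcm9 overlap between the groups.

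A like copy exists of a small piece of Dnajc9. Gm16550 (ENSMUSG00000089967, chromosome 1, 165148824 to 165148949, minus strand) is a processed pseudogene of 126 bases that differs from the Dnajc9 coding sequence at 1 base; it covers 5.93% of the Dnajc9 stretches. Its first 120 bases follow, with the differing base in capitals.
Gm16550, chr1:165148830-165148949, minus strand: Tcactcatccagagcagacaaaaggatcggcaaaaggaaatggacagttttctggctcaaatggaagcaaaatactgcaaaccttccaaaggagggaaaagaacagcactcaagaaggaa

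Gm16550 was at 1.61 ± 0.70 RPKM in KO and 0.208 ± 0.138 RPKM in rescue (SD, n = 4), with a log2 change of 1.54 ± 0.24 (SE, adjusted p = 0.0134). It was listed at 0 in rescue sample 3 of clone 632-2 but at 0.562 RPKM in sample 2, its technical partner. Gm8203, Gm16550, Ubxn6 and Mcm9 were chosen for their shared sequence, after their values had been seen.

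The other variant histones did not pass. H2afx (ENSMUSG00000049932, chromosome 9, 44334694 to 44336077, plus strand) was higher in KO in all 4 same-numbered pairs, at 1.86 and 1.60 RPKM in KO and 1.12 and 0.510 RPKM in rescue in clone 411-27. In clone 632-2 it was at 3.30, 3.08 and 4.38 RPKM in KO and 2.62, 1.35 and 2.02 RPKM in rescue. The groups overlapped, since the rescue values of clone 632-2 lay around the KO values of clone 411-27. The log2 change was 0.71 ± 0.17 (SE, 95% interval 0.31 to 1.10, adjusted p = 0.123); 8.96% of all genes were higher in each of the 4 pairs and 13% lower in each. Its transcripts share 11.2% of their 31-base stretches with other genes, among them clustered H2A genes and annotated miRNAs. Hist1h2ai, which holds 8.86% of them, was called higher in KO (4.47 RPKM against 2.41 RPKM in rescue, adjusted p = 0.0423 with limma). Hist1h2al, with 5.47%, was listed above H2afx, at 13.5 RPKM in KO and 9.58 RPKM in rescue (adjusted p = 0.453). Most of the other clustered H2A genes tested did not pass, and the division of reads was not tested. H3f3a (ENSMUSG00000060743, chromosome 1, 180800832 to 180813943, minus strand), one of the H3.3 genes, lay at 0.241 to 0.403 RPKM in KO and 0.229 to 0.382 RPKM in rescue, with a log2 change of -0.04 ± 0.11 (SE, 95% interval -0.29 to 0.22, adjusted p = 0.951); its sign depended on the scaling. The other H3.3 gene, H3f3b, was listed at 14.9 ± 2.5 RPKM in KO and 13.7 ± 1.9 RPKM in rescue (SD, n = 4). Of the 31-base stretches of the H3f3a transcripts, 31.6% also occur in other genes (59 genes). Among those with an entry in these data, 26 are annotated pseudogenes, and some were listed above H3f3a. H3f3c was at 3.83 ± 0.64 RPKM in KO and 4.57 ± 0.76 RPKM in rescue. H3f3a-ps2 was at 2.61 ± 0.83 and 3.56 ± 0.71 RPKM (SD, n = 4, adjusted p = 0.754 and 0.623 with limma). The largest share of the H3f3a stretches, 19.1%, is with Gm17275, a lincRNA on the opposite strand that overlaps H3f3a over 6916 bases. Gm17275 was listed at 0.298 RPKM in KO and 0.461 RPKM in rescue (adjusted p = 0.522 with limma). What share of H3f3a reads was counted at these genes was not tested.

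Hmgb2, which is known as the HMGB form of dividing cells, came close to the threshold. Hmgb2 (ENSMUSG00000054717, chromosome 8, 57511907 to 57515999, plus strand) was at 0.871 and 0.645 RPKM in KO and 0.483 and 0.313 RPKM in rescue in clone 411-27. In clone 632-2 it was at 1.13, 0.522 and 0.993 RPKM in KO and 0.238, 0.193 and 0.384 RPKM in rescue. After averaging of the technical pair, the lowest KO replicate (0.645 RPKM) was above the highest rescue replicate (0.483 RPKM). The log2 change was 0.70 ± 0.14 (SE, 95% interval 0.37 to 1.02, adjusted p = 0.0552 with limma), and the means of 0.850 ± 0.206 and 0.331 ± 0.106 RPKM (SD, n = 4) were 2.57-fold apart. It passed with a pseudocount of 0.1 RPKM (adjusted p = 0.0437), with technical libraries kept apart (0.0371) and without clone 411-27 KO replicate 2 or rescue replicate 1 (0.0396 and 0.0398). Hmgb1, its relative in most cells, was at 2.77 ± 0.47 RPKM in KO and 2.14 ± 0.67 RPKM in rescue (SD, n = 4; adjusted p = 0.680), and the Hmgb2 to Hmgb1 ratio was 0.256 to 0.433 in KO and 0.131 to 0.191 in rescue. Of the Hmgb2 stretches, 24.1% also occur in other genes (252 genes). The largest share, 20.3%, is with Gm4739, which has no entry in these data. Between 12.1% and 16.7% recur in each of 4 listed pseudogenes. Of these, Gm13237 was highest, at 0.822 ± 0.125 RPKM in KO and 0.403 ± 0.141 RPKM in rescue (SD, n = 4, adjusted p = 0.124 with limma).

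The order of listed levels (RPKM, which is per length) also differed between the conditions. It holds for the values as listed: reads that H2afz and H3f3a share with copies listed above them, such as Gm8203 at 30.7 RPKM in KO, may have been counted there, and the order, Chaf1a in first place included, depends on that. The places of Chaf1a, Asf1a and Hmgb2 also depend on their own shared reads, with 46.9%, 55.7% and 24.1% of their 31-base stretches in other genes. In rescue the means fell from H2afx (1.49 RPKM) through Dnajc9 (1.32), Asf1a (1.02), Chaf1a (0.930), H2afz (0.803), Nasp (0.653), Hmgb2 (0.331), H3f3a (0.322) and Chaf1b (0.203) to Asf1b (0.112), and each neighbour in that order overlapped the next in its range over replicates. In KO, Chaf1a (5.0 RPKM) stood first and above the range of H2afx (2.62), followed by Dnajc9 (2.34), H2afz (1.88), Asf1b (1.59), Asf1a (1.04), Hmgb2 (0.850) and Nasp (0.733), all overlapping their neighbours, and then by Chaf1b (0.387), whose range lay below that of Nasp, and H3f3a (0.300). Asf1b thus moved from rank 10 to rank 5.

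The comparison was also made in each clone alone, with 2 replicates a group. In clone 632-2, 3 of the 10 genes rose: Chaf1a by a log2 change of 2.17 ± 0.18 (SE, adjusted p = 0.0121), Asf1b by 2.11 ± 0.13 (adjusted p = 0.0104) and H2afz by 0.98 ± 0.12 (adjusted p = 0.0311), where 1.24% of 15301 genes were called higher and 0.0654% lower. Fitted with the replicate numbers as a block, 2 of these 3 were called, and H2afz had an adjusted p of 0.0531. Dnajc9 (log2 change 0.61, adjusted p = 0.0890) and Hmgb2 (0.91, adjusted p = 0.0954) did not pass. These calls rest on few libraries: without KO replicate 1, KO replicate 2 or rescue replicate 1 of this clone 0 of the 10 genes were called, without rescue replicate 2 there were 2, and with no minimum level 0. At an unadjusted p under 0.05, 6 of the 10 lay higher and 0 lower, against 7.31% and 4.52% of all genes. In clone 411-27, 0 of 18751 genes were called by limma, and the lowest adjusted p among the 10 genes was 0.215, for Chaf1a; at an unadjusted p under 0.05, 5 of the 10 lay higher and 0 lower, against 2.27% and 1.82% of all genes. The changes there were 1.75 ± 0.20 for Chaf1a and 1.33 ± 0.22 for Asf1b (log2, SE). Lin37 itself did not pass in this clone either (log2 change -1.84, adjusted p = 0.167 with limma). The lack of calls in clone 411-27 is thus no measure of a difference between the clones.

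**Figure D4:**
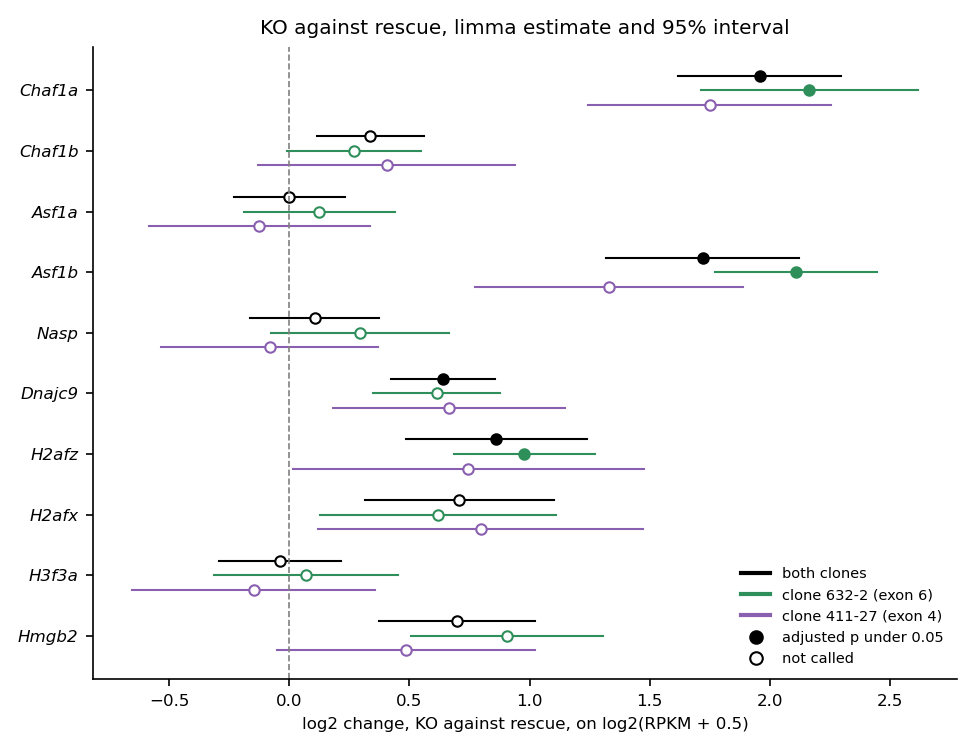
Log2 change of KO against rescue for each gene, with the 95% interval of the limma fit, over both clones (black, 4 replicates a group), in clone 632-2 (green) and in clone 411-27 (purple, each 2 replicates a group); filled points have an adjusted p under 0.05. Chaf1a and Asf1b lie above 1.3 in every fit, and the intervals of Asf1a, Nasp and H3f3a include 0 in every fit.

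The difference between the clones was tested as an interaction of clone and genotype, and 0 of 16866 genes were called by limma. By unadjusted p, 2.57% had a larger and 1.49% a smaller log2 change in clone 632-2 at the 0.05 level. Among the 10 genes only Asf1b had an unadjusted p under 0.05, with a change larger in clone 632-2 by 0.78 ± 0.24 (log2, SE, adjusted p = 0.997). The clones did differ in level: over KO and rescue together, H2afx was higher in clone 632-2 by 0.94 ± 0.17 (log2, SE, adjusted p = 0.0105), Asf1a by 0.47 ± 0.10 (adjusted p = 0.0209) and Dnajc9 by 0.40 ± 0.10 (adjusted p = 0.0287), where 6.84% of all genes were called higher and 6.71% lower. This comparison was added after the values had been seen. The other 7 genes did not pass it.

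The wider family was read from lists of related genes, which were also chosen with earlier results known. Among all genes tested over both clones, 1.61% were called higher and 0.083% lower. Of 28 other histone chaperones and partners, 4 rose, 0 fell and 24 did not pass, with a median log2 change of -0.0018. The 4 were Hat1, the acetyltransferase of new H4 (1.76 ± 0.21 RPKM in KO and 0.660 ± 0.331 RPKM in rescue, SD, n = 4; log2 change 1.01, adjusted p = 0.00916), Mms22l (0.784 ± 0.160 and 0.168 ± 0.056 RPKM; 0.94, adjusted p = 0.00142), Hjurp, the chaperone of CENP-A (2.70 ± 0.36 and 1.46 ± 0.12 RPKM; 0.70, adjusted p = 0.00321), and Tonsl (2.03 ± 0.04 and 1.33 ± 0.14 RPKM; 0.47, adjusted p = 0.0339). MMS22L and TONSL form a complex that binds new histones behind forks. Fitted with the replicate numbers as a block, Tonsl had an adjusted p of 0.0669. Of the 24 that did not pass, Rbbp7 (-0.27), Npm3 (-0.27), Nap1l1 (-0.27) and Rsf1 (-0.15) had the largest log2 changes in size.

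Of 8 other variant histones, 7 were tested and 1 rose: Cenpa, the H3 variant of centromeres, at 0.632 ± 0.184 RPKM in KO and 0.116 ± 0.067 RPKM in rescue (SD, n = 4; log2 change 0.87 ± 0.15 SE, adjusted p = 0.0191). H1fx was under the minimum level, and the median of the 7 was 0.01. Of all genes tested, 1.61% were called higher. H2afy2 (-0.17), H3f3b (0.11), H2afv (0.10) and H2afy (-0.06) followed in the size of their log2 change. Of 8 other HMG-box, HMGN and HMGA genes, 0 were called by limma, with a median of 0.21. At an unadjusted p under 0.05, 1 of the 8 was higher, against 5.06% of all genes. Hmga1 had the largest change (4.22 ± 0.50 RPKM in KO and 2.68 ± 0.65 RPKM in rescue, SD, n = 4; log2 change 0.59, adjusted p = 0.148), followed by Hmgb1 (0.33), Hmgb3 (0.28) and Hmga2 (0.23).

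**Figure D5:**
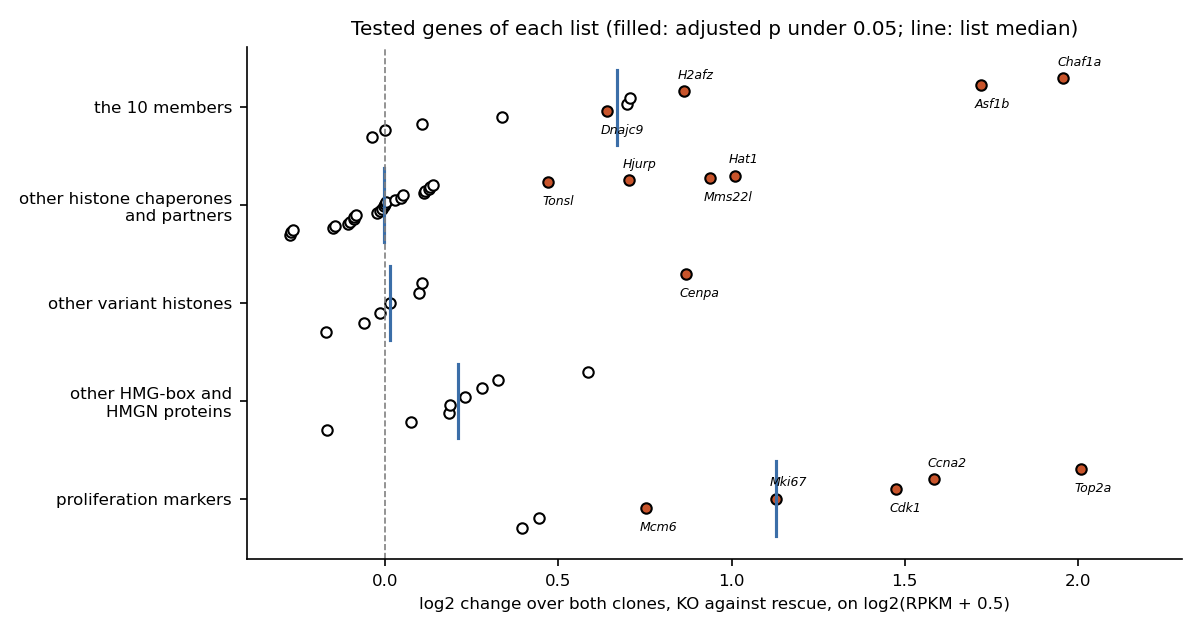
Log2 change over both clones for each tested gene of 5 lists, with filled points for an adjusted p under 0.05, a line at each list's median and the vertical position within a list set only by rank. The medians are 0.67 for the 10 genes, -0.0018 for the 28 other chaperones, 0.01 for the 7 other variant histones, 0.21 for the 8 HMG genes and 1.13 for the 7 proliferation markers.

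Markers of dividing cells moved with the same groups. Of 7 proliferation markers, 5 rose (Top2a, Ccna2, Cdk1, Mki67 and Mcm6), where 1.61% of all genes were called higher. Pcna (log2 change 0.44, adjusted p = 0.176 with limma) and Ccnb1 (0.39, adjusted p = 0.157) did not pass. Ccnb1 lay at 0.132 to 0.276 RPKM in the KO replicates and at 0.00763 to 0.0761 RPKM in the rescue replicates. These values are under the added 0.5 RPKM, so its log2 change understates the fold. The summed level of the 7 markers was 10.9 to 13.0 RPKM in the KO replicates and 2.01 to 3.77 RPKM in the rescue replicates. By DNA staining of starved cells, the study reported a small rise in the share of S, G2 and M phase cells when Lin37 was missing or mutated. In RNA from whole cultures, more cells in the division cycle and more RNA per cell cannot be told apart, and the part of either in the changes given above was not tested.

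The genes whose log2 levels were most like those of the 4 called genes over the 8 replicates are given as a description. They share libraries, the clone structure and the division into KO and rescue. The group difference was not removed, so genes that differ between KO and rescue are correlated through it. The neighbours below are thus no result apart from the KO and rescue comparison. Among 11364 protein-coding genes, Chaf1a was closest to Aurkb (Pearson r = 0.996), Cenpe (0.995) and Cep55 (0.995), all of mitosis. Asf1b was closest to Mybl1 (0.994), Kif2c (0.991) and Aunip (0.990). Dnajc9 was closest to Atp6ap2 (0.983), Mcm2 (0.977) and Slc30a6 (0.974), and H2afz to E2f2 (0.981), Rpn2 (0.980) and Recql4 (0.971). Chaf1b was closest to Dnajc9 (0.969), Mcm4 (0.962) and Tex30 (0.962), and Hmgb2 to Zfp101 (0.985), Palb2 (0.973) and Nup107 (0.969). The genes that did not separate KO from rescue had other neighbours: Nasp was closest to Ntn1 (0.955), Ugp2 (0.931) and Ppp2ca (0.930), H2afx to Mvk (0.986), Msmo1 (0.978) and Atp6v0d1 (0.978), and H3f3a to Zbtb33 (0.985), Rex2 (0.941) and Sf3b1 (0.922). Asf1b and Asf1a had an r of 0.251 with each other, against 0.932 for Asf1b and Chaf1a.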

How the data were processed

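RNA of 10 libraries was sequenced after ribosomal RNA depletion, as paired reads from a kit for degraded RNA. The authors clipped adapters with cutadapt, aligned them against mm10 using split-read mapping in segemehl, counted them per gene with rnacounter against GENCODE vM5 and deposited RPKM values, all of whose columns were matched to a sample (0 unmatched). Picard 1.89 is also named in the submitters' processing notes. Which reads make up the library total, and whether strand was used, are not given in the sources used here. How reads that map to several places were treated could change the values of genes that share sequence with others, such as H2afz and H3f3a, and was not tested.

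Gene names came from GENCODE M21 of GRCm38 (44585 of 45232 identifiers matched), promoters from RefSeq (GRCm38.p6). Libraries were scaled by the median of ratios, using the 8523 genes that had a value in each library and averaged 1 RPKM or more, and the technical pair was averaged. For genes averaging 0.1 RPKM or more, limma 3.58.1 in R 4.3.3 (lmFit, then eBayes with its trend option) was run on log2(RPKM + 0.5); clone was a covariate when both clones were fitted. Benjamini-Hochberg adjusted p-values under 0.05 were called. The study used edgeR on counts, which were not used here. Fold changes on this scale understate those of low genes. The labels call samples 1 and 2 biological replicates without saying what sets them apart, and each clone is a single line, so p-values measure the spread between these samples.

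KO and rescue share replicate numbers in the labels; replicates with the same number deviated together from their groups (r = 0.477 in clone 411-27 and 0.360 in clone 632-2, over 7550 genes), so they were treated as paired in a fit with replicate number as a block. The members, lists and tests were chosen with earlier results of these data known. Named with values were the 10 genes, Lin37, their paralogs, each called gene of a list with up to 4 others of largest change, the 3 protein-coding genes most correlated with each member (those of Asf1a are not reported here), and genes sharing 31-base stretches with a member. The limma step was tested on simulated data. Other tools were Python 3.11.15, pandas 2.3.3, numpy 2.4.6 and matplotlib 3.10.9. Alternatives were another pseudocount, level minimum or scaling, other use of the technical pair, the block, no trend, no clone covariate and leaving out each replicate.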

Additional observations from a re-analysis of the deposited data

Results flagged for a closer look

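Among 20 groups of 4 replicates tested for a sample far from the others (10 genes in KO and in rescue; chance alone gives about 1 in 20), the KO group of Chaf1b had such a sample. KO replicate 1 of clone 411-27 was at 0.309 RPKM, while the other 3 KO replicates were at 0.405 to 0.418 RPKM, and its gap took up 0.878 of the range. It was still above the highest rescue replicate (0.270 RPKM).

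The change of Nasp had opposite signs in the clones. Both pairs of clone 411-27 were lower in KO (mean log2 change -0.082) and both pairs of clone 632-2 higher (mean 0.29). The interaction of clone and genotype was 0.38 ± 0.21 (log2, SE, adjusted p = 0.997 with limma), so a difference between the clones was not detectable at this size.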

How the results depend on the processing

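Chaf1a and Asf1b were called higher over both clones under each alternative and each replicate left out, and 0 of the 10 genes were called lower under any. With 1 replicate left out in turn, 2 to 5 of the 10 genes were called higher over both clones, of all genes 174 to 265 higher and 4 to 16 lower; in clone 632-2, 0 to 2 of the 10, and 0 to 69 higher and 0 to 3 lower of all genes. Where that left a group of a clone with 1 sample, it was assumed to vary like the others. Without the clone covariate 2 of the 10 genes were called over both clones (adjusted p = 0.202 for Dnajc9; 6 of all genes were lower); leaving out a replicate or this covariate changes the residual degrees of freedom. Over both clones, the 271 genes called higher became 155 with no minimum level, 93 with a minimum of 1 RPKM (fewer genes tested) and 875 with RPKM as deposited. The 14 lower became 27 with the replicate block. In clone 632-2, 189 higher and 10 lower became 0 and 0 with no minimum (and 0 of the 10 genes), 67 higher with a minimum of 1 RPKM, 69 and 4 without technical sample 3, and 10040 and 47 as deposited, where 10 of the 10 genes were called. In clone 411-27, 1 gene was called lower with a minimum of 1 RPKM and 1 with the block. The interaction gave 55 higher and 5 lower with no minimum, and 7 higher as deposited. As deposited, the median of all genes over both clones was 0.64, and the log2 changes of Asf1a (0.74), Nasp (0.74), Chaf1b (0.73) and H3f3a (0.46) lay within 0.2 of it. Asf1a over both clones took a negative sign with a pseudocount of 0.1 (-0.0092), without sample 3 (-0.047) and with some replicates left out (range -0.072 to 0.050). H3f3a took a positive sign over both clones as deposited (0.46) and with quantile normalization (0.00070), and in clone 632-2 a negative one without sample 3 (-0.042) and with some replicates left out (range -0.066 to 0.21). H2afx passed over both clones as deposited (adjusted p = 0.00857) and with technical libraries kept apart (0.0466). The replicate block changed no other call among the 10 genes. Except where stated, the cause was not tested. Depth limits low genes such as Chaf1b and Asf1b, but could not be given in reads.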
